A study of Mus musculus with 8 samples.

Results

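The genes described here encode integrin subunits of leukocytes. They are Itgam, Itgax, Itgal, Itgad and Itgb2 (the β2 family), Itga4 with its partners Itgb1 and Itgb7, and Itgav with its partner Itgb5. They were taken by gene symbol from the annotation of the array, using probe sets assigned to a single symbol and, for Itgb1, the brighter of 2 such probe sets. All 10 were found among the 18782 genes measured. The study profiled sorted lung macrophages of newborn C57BL/6 mice on Affymetrix arrays. There were 4 groups of 2 arrays: CD11c-Cre/Pparg fl/fl mice (knockout, KO) at day 11 after birth, Pparg fl/fl mice (WT) at day 11, KO mice at day 2 and WT mice at day 2. All mice of both genotypes carried the floxed Pparg allele, and the KO mice alone carried the recombinase, whose CD11c driver is the gene Itgax described here. Each array held RNA of cells pooled from 2 mice, so the p-values measure the spread between pools, and the low number of arrays limits the precision.

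The sort gates used CD11b, the product of Itgam, and CD11c, the product of Itgax. At day 11 the gate took Siglec-F+ leukocytes (CD45+) with strong CD11c staining and autofluorescence, of the CD11b high kind in KO and the CD11b low kind in WT mice. At day 2 it took CD45+ F4/80+ cells with strong CD11c staining. These were intermediate in both Siglec-F and CD11b, or else CD11b high with little Siglec-F. The labels do not say which of the day 2 gates was used for which genotype. Gate and genotype cannot be told apart for Itgam or, at day 11, for any other gene. At day 2 this also holds for every gene if the genotypes were gated differently. The levels of Itgam and Itgax are in part set by the sort. In sorted bulk samples, fewer cells of a type and less RNA per cell cannot be told apart.

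An integrin is a pair of an α and a β subunit that spans the membrane and binds matrix proteins, complement fragments or counter-receptors on other cells. CD11a (Itgal), CD11b, CD11c and CD11d (Itgad) each pair with CD18 (Itgb2), and these pairs serve firm adhesion and the uptake of complement-coated particles in myeloid cells. The α4 subunit pairs with β1 to form VLA-4, a receptor for VCAM-1 and fibronectin used by monocytes and lymphocytes to enter tissue, or with β7 to form the mucosal homing receptor for MAdCAM-1. The αv subunit pairs with β5, among others, to bind vitronectin and MFG-E8, which bridges dying cells to phagocytes. Mature alveolar macrophages of the mouse are known for high CD11c and low CD11b on their surface.

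Values are RMA signals on the log2 scale. The median of all probe sets was 5.35 on each array, and r across genes between the 2 arrays of a group was 0.994 to 0.998. Pparg, the targeted gene, had signals of 11.32 and 11.36 in KO and 11.18 and 11.13 in WT cells at day 11, and 10.55 and 10.74 in KO and 10.89 and 11.01 in WT cells at day 2. The labels do not place its probes relative to the deleted part, so this level does not check the deletion. All 8 macrophage genes looked up (Ptprc, Adgre1, Cd68, Csf1r, Mertk, Fcgr1, Lyz2 and Cd14) lay above the array median in every array, as did all 16 alveolar macrophage markers except Krt19 in KO day 2 replicate 1. That replicate stood apart in 18 interferon-induced genes, whose median signal was 8.66 in it and from 4.76 to 5.43 in the other 7 arrays. By limma at an adjusted p under 0.05, 9 of the 16 alveolar macrophage markers were lower in KO cells at day 11 (56.2%, beside 18.6% of all genes). At day 2, 11 were lower (68.8%, beside 20.1%), and none was higher at either age. Marco averaged 5.74 in KO and 9.50 in WT cells at day 11, and Krt79 5.64 and 10.97. Fabp5, Car4, Plet1, Atp6v0d2 and Slc7a2 were called at neither age. Xist, a transcript of female cells, read 3.38 in WT day 2 replicate 2 and 3.46 in KO day 11 replicate 1, against 9.85 to 10.68 in the other 6 arrays. The Y-linked genes Eif2s3y and Uty read 4.05 and 4.22 in KO day 2 replicate 1. In the other arrays they read 6.92 to 9.06 and 5.78 to 8.15. The 2 pools of WT day 2, of KO day 2 and of KO day 11 thus differed in their make-up by sex.

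The sequences 5′ of the transcription start are shown for the integrin genes with the largest genotype differences, Itgam, Itga4 and Itgb7, and for Itgax, the neighbour of Itgam. Each line gives the 250 bases before 1 start of the gene from RefSeq (GRCm38.p6), on the strand of the gene. Other starts were not searched. The Itgb7 window lies within the annotated extent of its gene (chr15:102215994-102233405), as does the Itgav window counted below. The last bases of the Itgax window lie within that of Itgax (chr7:128129526-128150657). Capitals mark GAGGAA or its reverse complement TTCCTC, the core of sites bound by the myeloid factor PU.1, which was searched on both strands.
Itgam, chr7:128062390-128062639, plus strand: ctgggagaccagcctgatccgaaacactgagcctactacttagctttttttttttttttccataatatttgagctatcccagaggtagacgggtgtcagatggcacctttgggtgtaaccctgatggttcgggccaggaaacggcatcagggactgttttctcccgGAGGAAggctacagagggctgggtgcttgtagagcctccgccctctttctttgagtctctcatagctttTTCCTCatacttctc
Itgax, chr7:128129300-128129549, plus strand: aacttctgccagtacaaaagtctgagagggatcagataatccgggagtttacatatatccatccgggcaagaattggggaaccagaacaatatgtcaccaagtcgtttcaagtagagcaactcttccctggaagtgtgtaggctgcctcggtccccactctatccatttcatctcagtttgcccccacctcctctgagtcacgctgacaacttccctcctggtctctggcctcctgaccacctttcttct
Itga4, chr2:79255176-79255425, plus strand: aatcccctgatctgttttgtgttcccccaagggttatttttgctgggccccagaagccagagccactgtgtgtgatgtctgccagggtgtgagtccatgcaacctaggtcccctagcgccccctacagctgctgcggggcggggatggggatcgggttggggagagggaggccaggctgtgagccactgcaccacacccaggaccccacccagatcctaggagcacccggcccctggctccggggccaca
Itgb7, chr15:102231936-102232185, minus strand: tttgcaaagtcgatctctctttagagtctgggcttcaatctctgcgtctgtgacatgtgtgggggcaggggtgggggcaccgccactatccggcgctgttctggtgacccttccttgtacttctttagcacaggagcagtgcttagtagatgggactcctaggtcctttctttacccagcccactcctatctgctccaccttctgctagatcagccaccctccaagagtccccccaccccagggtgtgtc
Itgam held the motif at 84 bases before the start and, on the opposite strand, at 15 bases before it. The Itgax, Itga4 and Itgb7 windows did not hold these letters. The motif occurred in 23.3% of all 32851 promoter windows of this length and in 3 of the 7 windows available for the integrin genes (Itgam, Itgb1 and Itgav). TGTGGT, the core of sites bound by RUNX factors, occurred in 14.0% of all windows and in that of Itga4 among the 7. AGGTCA, a motif of nuclear receptors, occurred in 14.0% of all windows and in none of the 7. GGGCGG, the GC box bound by Sp1, occurred in 32.7% of all windows and in those of Itgam, Itga4, Itgb1 and Itgb5.

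The first question was how integrin genes differed between the genotypes. Knockout cells had far more Itgam signal at both ages, about 3-fold more Itga4, and more Itgb7 at day 2, whereas the shared β subunits Itgb2 and Itgb1 showed no call. At day 11, 5 of the 10 genes were higher and 1 was lower in KO cells by limma at an adjusted p under 0.05, when 18.6% of all genes were called (9.34% higher and 9.29% lower). At day 2, 6 were higher and 1 was lower, when 20.1% of all genes were called (8.86% higher and 11.2% lower). The median log2 difference of the 10 genes was 0.36 at day 11 and 0.27 at day 2, beside medians of -0.00 and -0.03 over all genes. The number called at day 2 dropped to 4 without WT day 2 replicate 1, without WT day 2 replicate 2 or without KO day 2 replicate 1. At day 11 it was 4 without WT day 11 replicate 1 or without KO day 11 replicate 2.

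**Figure D1:**
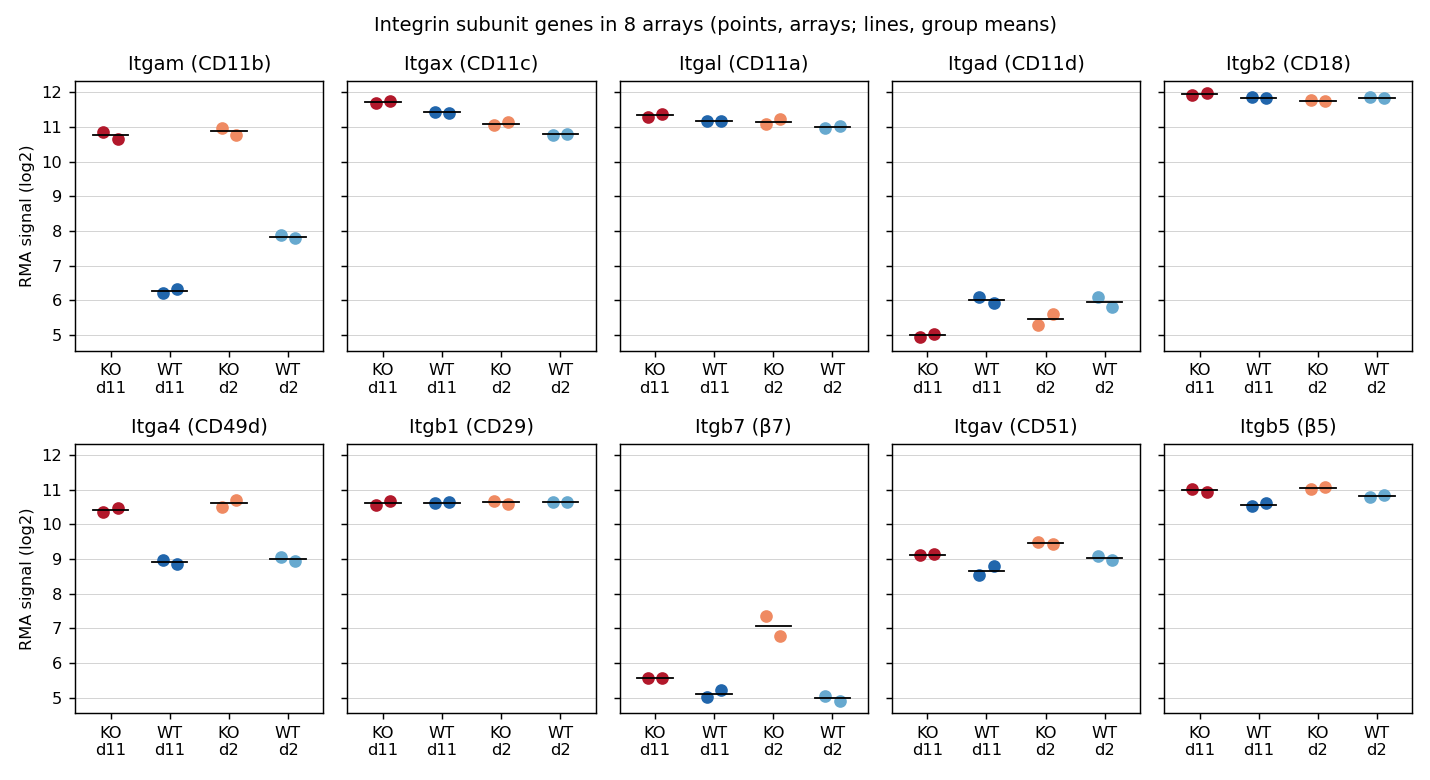
RMA signal (log2) of the 10 integrin genes in each array, with KO and WT at day 11 and then KO and WT at day 2. Points are arrays and lines are means of 2 arrays. Itgam and Itga4 separate the genotypes at both ages, Itgb7 is high in the KO arrays at day 2, and Itgb1 lies between 10.57 and 10.68 in every array.

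Itgam, the α chain of Mac-1 and of complement receptor 3, had signals of 10.86 and 10.66 in KO cells and 6.22 and 6.32 in WT cells at day 11. At day 2 it had 10.98 and 10.78 in KO cells and 7.87 and 7.79 in WT cells. The KO arrays of both ages lay in 1 narrow range, far above both WT groups, and the WT arrays at day 11 lay below those at day 2. The KO difference was 4.49 ± 0.10 at day 11 (SE, 22.5-fold, adjusted p = 8.37e-07) and 3.05 ± 0.10 at day 2 (8.28-fold, adjusted p = 2.37e-06). By size it ranked 5 among the 18782 genes at day 11 and 61 at day 2. The genotype difference was larger at day 11 than at day 2 by 1.44 ± 0.14 on the log2 scale (adjusted p of the interaction = 0.00227). With Itgb7 it was 1 of 2 integrin genes with a called interaction, 1 in each direction, when 3.27% of all genes were called (1.29% higher and 1.99% lower). Between the ages, the Itgam difference was -0.12 ± 0.10 in KO cells (adjusted p = 0.499, 95% interval from -0.34 to 0.10) and -1.56 ± 0.10 in WT cells (adjusted p = 0.000313). Siglecf, whose product was also gated on, read 8.73 and 8.85 in KO and 10.90 and 10.73 in WT cells at day 11, and 7.13 and 7.46 in KO and 9.85 and 9.90 in WT cells at day 2.

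Itgax, the α chain of complement receptor 4 and the marker by which all cells were gated as high, had signals of 11.69 and 11.74 in KO and 11.44 and 11.41 in WT cells at day 11. At day 2 it had 11.05 and 11.13 in KO and 10.77 and 10.81 in WT cells. The 4 groups did not overlap, and they ran from KO at day 11 through WT at day 11 and KO at day 2 down to WT at day 2. The KO difference was 0.29 ± 0.06 at day 11 (1.22-fold, adjusted p = 0.0145) and 0.30 ± 0.06 at day 2 (1.23-fold, adjusted p = 0.012). These calls rested on single arrays. The day 11 call was lost without WT replicate 1 (adjusted p = 0.0638), WT replicate 2 or KO replicate 2 (0.0818 for either), and the day 2 call without WT replicate 1 (0.0726), WT replicate 2 (0.0515) or KO replicate 2 (0.0605).

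Itgad, which encodes the α chain CD11d, was the only one of the 10 genes called lower in KO cells. Its signals were 4.95 and 5.04 in KO and 6.10 and 5.91 in WT cells at day 11, and 5.30 and 5.60 in KO and 6.09 and 5.82 in WT cells at day 2. Both KO groups lay below both WT groups, and the signals sat close to the array median of 5.35, so that the gene is weakly measured. The difference was -1.01 ± 0.13 at day 11 (2.01-fold lower, adjusted p = 0.00111) and -0.50 ± 0.13 at day 2 (1.42-fold lower, adjusted p = 0.0277). The day 2 call was lost without WT replicate 1 (adjusted p = 0.163), without KO replicate 1 (0.126) and with the day 2 arrays fitted alone (0.0702). The change of this difference between the ages was not called (-0.51 ± 0.18, adjusted p = 0.209).

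Itgal, the α chain of LFA-1, which binds ICAM proteins, had signals of 11.30 and 11.38 in KO and 11.17 and 11.17 in WT cells at day 11, and 11.08 and 11.22 in KO and 10.96 and 11.02 in WT cells at day 2. The genotypes did not overlap at either age, but the differences of 0.17 ± 0.07 at day 11 (adjusted p = 0.159) and 0.16 ± 0.07 at day 2 (adjusted p = 0.17) were not called. Their 95% intervals ran from 0.00 to 0.34 and from -0.01 to 0.33.

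Itgb2 encodes CD18, without which none of these α chains reaches the surface. It had signals of 11.91 and 11.97 in KO and 11.86 and 11.82 in WT cells at day 11, and 11.77 and 11.75 in KO and 11.85 and 11.83 in WT cells at day 2. All 8 arrays lay within a range that is narrow beside that of Itgam. The KO difference was 0.10 ± 0.06 at day 11 (adjusted p = 0.335, 95% interval from -0.04 to 0.24) and -0.08 ± 0.06 at day 2 (adjusted p = 0.422, from -0.22 to 0.06). At either age the interval lay within 0.24 log2 units of 0.

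**Figure D2:**
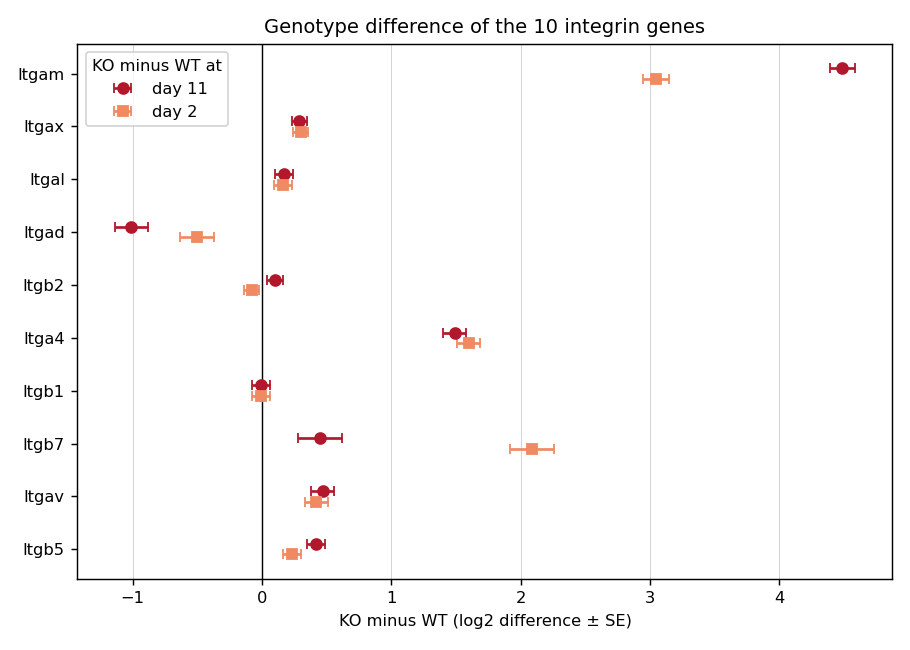
Log2 difference of signal, KO minus WT, for each integrin gene at day 11 (circles) and day 2 (squares), with the standard error of the limma fit over 8 arrays. Itgam reaches 4.49 at day 11 and 3.05 at day 2, Itga4 lies at 1.49 and 1.60, and Itgb7 lies at 0.45 at day 11 and 2.09 at day 2.

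Itga4, the α chain of VLA-4, had signals of 10.35 and 10.47 in KO and 8.98 and 8.86 in WT cells at day 11. At day 2 it had 10.51 and 10.69 in KO and 9.06 and 8.94 in WT cells. The genotypes stood apart by more than a log2 unit at both ages, and the WT groups of the 2 ages overlapped. The KO difference was 1.49 ± 0.09 at day 11 (2.8-fold, adjusted p = 3.98e-05) and 1.60 ± 0.09 at day 2 (3.03-fold, adjusted p = 2.41e-05). It kept its call in each of the 15 alternative fits at each age. CD49d was not named in the gates, but the genotypes were gated differently at day 11, and the part of the gate in the Itga4 difference was not tested. The KO difference of Itga4 showed no call for a change between the ages (-0.11 ± 0.13, adjusted p = 0.729).

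The β partners of α4 differed from each other. Itgb1 had signals of 10.57 and 10.67 in KO and 10.62 and 10.63 in WT cells at day 11, and 10.68 and 10.58 in KO and 10.65 and 10.64 in WT cells at day 2. The genotypes overlapped at both ages, and the KO difference was -0.01 ± 0.07 at each (adjusted p = 0.978 at day 11 and 0.914 at day 2, 95% intervals from -0.16 to 0.15 and from -0.17 to 0.14). A dimmer probe set of Itgb1, which was not used, read from 5.49 to 5.82 over the 8 arrays.

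Itgb7 had signals of 5.56 and 5.58 in KO and 5.03 and 5.21 in WT cells at day 11. At day 2 it had 7.37 and 6.77 in KO and 5.06 and 4.90 in WT cells. The KO arrays at day 2 were high, and the other 6 arrays lay near or below the array median, those of KO at day 11 being the highest among them. The KO difference was 0.45 ± 0.17 at day 11 (1.37-fold, adjusted p = 0.124) and 2.09 ± 0.17 at day 2 (4.25-fold, adjusted p = 0.000143). The day 11 difference less that at day 2 was -1.63 ± 0.25 (adjusted p = 0.0146). This interaction was lost without WT day 2 replicate 1 (adjusted p = 0.0592) or replicate 2 (0.0769) and without WT day 11 replicate 1 (0.0523) or replicate 2 (0.0696). The day 11 difference passed the test without KO day 2 replicate 1 or 2 (adjusted p = 0.0101) and with the day 11 arrays fitted alone (0.0143). Without KO day 2 replicate 1, the array with high interferon genes, the day 2 difference of Itgb7 was 1.79 (adjusted p = 7.89e-05), and that of Itga4 was 1.69. Itgae, the other α partner of β7, read from 4.23 to 4.80 in all 8 arrays, below the array median.

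Itgb7 is also made by dendritic cells, lymphocytes and mast cells, and markers of these cells were looked up. Of 19 dendritic cell markers, 3 were higher and 2 lower in KO cells at day 11, and 10 were higher and 1, Ly75, was lower at day 2. This is 26.3% of the list at day 11, beside 18.6% of all genes, and 57.9% at day 2, beside 20.1%. Their summed linear signal was 5663 and 6652 in KO and 4638 and 4649 in WT cells at day 11, and 6432 and 6789 in KO and 5080 and 4966 in WT cells at day 2. Cd24a, which is not limited to dendritic cells, made up much of these sums. Without it they were 2602 and 2857 in KO and 3239 and 3191 in WT cells at day 11, so that KO was the lower, and 3495 and 3598 in KO and 2870 and 2756 in WT cells at day 2. This and the like sums below, each without the gene of its list that differed most between the genotypes, were chosen after seeing the data. Ly75 made up much of the WT sums left. It read 8.99 and 8.55 in KO and 10.73 and 10.75 in WT cells at day 11. Clec9a and Irf4 were called higher in KO cells at day 11, by 3.05 ± 0.18 and 1.93 ± 0.30, as was Cd24a. Btla was called lower along with Ly75 at that age. Cd209a, a lectin gene of monocyte-derived dendritic cells, read 5.28 and 5.72 in KO and 5.14 and 5.43 in WT cells at day 11, and 8.81 and 9.63 in KO and 5.26 and 5.57 in WT cells at day 2. Zbtb46, Xcr1, Siglech, Btla and Itgae lay at or below the array median in every array. So did 10 of 12 mast cell and basophil markers and 13 of 17 T and NK cell markers. The mast cell markers Cpa3 and Hdc were nonetheless called higher in KO cells at day 2 (0.38 ± 0.10, adjusted p = 0.0387, and 1.05 ± 0.19, adjusted p = 0.00698), and none of the 12 was called at day 11. This is 16.7% of the list at day 2, beside 20.1% of all genes, and 0% at day 11, beside 18.6%. In KO cells Cpa3, Kit, Gata2 and Hdc were lower at day 11 than at day 2 (33.3% of the 12, beside 15.5% of all genes called), as was Itgb7. Of the 17 T and NK markers, 3 were higher at day 11 (17.6%, beside 18.6% of all genes called) and 4 at day 2 (23.5%, beside 20.1%). These shares are near those of all genes. The summed signals of the 17 were 2700 and 2628 in KO and 2201 and 1780 in WT cells at day 11, and 3654 and 3144 in KO and 1491 and 1402 in WT cells at day 2. Without Il7r, the interleukin 7 receptor gene, the sums were 1395 and 1791 in KO and 2127 and 1659 in WT cells at day 11, and 1150 and 1504 in KO and 1145 and 1165 in WT cells at day 2, and the genotypes overlapped at both ages. Cd2, which showed no genotype call, made up much of the sums left. Besides Il7r, the markers called higher were Cd3e at both ages, Klrb1c at day 11, and Cd5 and Klrd1 at day 2. The part of these cells in the Itgb7 difference was not tested.

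Monocyte and neutrophil markers, whose cells carry CD11b and, for monocytes, α4, were also looked up. Of 14 monocyte markers, 5 were higher and 3 lower in KO cells at day 11 (57.1% called, beside 18.6% of all genes). At day 2, 9 of these markers were higher and none was lower (64.3%, beside 20.1%). Their summed linear signal was 9664 and 8953 in KO and 8221 and 8698 in WT cells at day 11, and 15387 and 14570 in KO and 8834 and 8819 in WT cells at day 2. The chemokine receptor gene Ccr2, a marker of classical monocytes, read 8.28 and 8.54 in KO and 6.23 and 6.08 in WT cells at day 11, and 10.78 and 10.79 in KO and 8.11 and 8.04 in WT cells at day 2. Without Ccr2 the sums were 9353 and 8583 in KO and 8146 and 8630 in WT cells at day 11, which overlapped. At day 2 they were 13629 and 12800 in KO and 8558 and 8555 in WT cells. Lyz2, one of the macrophage genes above, made up much of these sums and showed no genotype call. It averaged 12.34 in KO and 12.28 in WT cells at day 11. The 3 markers lower in KO than in WT cells at day 11 were Fcgr4 (-2.20 ± 0.31), Treml4 (-2.37 ± 0.13) and Spn (-0.58 ± 0.09). In KO cells, 11 of the 14 were lower at day 11 than at day 2 (78.6%, beside 15.5% of all genes called). Cd300a, Spn and Lyz2 were not called. This log2 difference was -2.38 ± 0.10 for Ccr2 (adjusted p = 1.36e-05) and 0.00 ± 0.13 for Cd300a. For Itgam it was -0.12 ± 0.10, and for Itga4 -0.19 ± 0.09. Of 15 neutrophil markers, 2 were higher and 2 lower at day 11 (26.7% called, beside 18.6% of all genes), and 9 were higher and 1 lower at day 2 (66.7%, beside 20.1%). Their summed signals were 3027 and 2861 in KO and 1107 and 1004 in WT cells at day 11, and 3442 and 3379 in KO and 942 and 939 in WT cells at day 2. Mmp8, a collagenase gene, made up much of these sums in KO cells. Without it they were 878 and 681 in KO and 839 and 805 in WT cells at day 11, which overlapped, and 1994 and 1608 in KO and 867 and 862 in WT cells at day 2. The markers higher in KO cells at day 2 were S100a8, S100a9, Mmp8, Mmp9, Retnlg, Ngp, Ltf, Csf3r and Lcn2, and Cxcr2 was lower. The granule genes Ngp and Lcn2 averaged 6.14 and 8.27 in KO and 4.13 and 5.63 in WT cells at day 2. At day 11, S100a8 and Mmp8 were higher, and Cxcr2 and Csf3r were lower. The granule genes Ltf, Camp, Elane and Mpo and the gene Padi4 lay at or below the array median in every array. Ltf was nonetheless called higher at day 2, by 0.68 ± 0.06. The part of these cells in the Itgam and Itga4 differences was not tested.

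Itgav and Itgb5 were higher in KO cells by small amounts. Itgav had signals of 9.12 and 9.13 in KO and 8.53 and 8.79 in WT cells at day 11, and 9.48 and 9.42 in KO and 9.08 and 8.98 in WT cells at day 2. The genotypes did not overlap at either age. The difference was 0.47 ± 0.09 at day 11 (1.38-fold, adjusted p = 0.0101) and 0.42 ± 0.09 at day 2 (1.34-fold, adjusted p = 0.0153). The calls were lost without WT day 11 replicate 1 (adjusted p = 0.0545) or KO day 11 replicate 2 (0.0531) at day 11, and without WT day 2 replicate 2 (0.105) or KO day 2 replicate 1 (0.0678) at day 2.

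Itgb5 had signals of 11.03 and 10.93 in KO and 10.52 and 10.60 in WT cells at day 11, and 11.02 and 11.07 in KO and 10.79 and 10.84 in WT cells at day 2. The KO groups of the 2 ages overlapped and lay above both WT groups. The difference was 0.42 ± 0.07 at day 11 (1.34-fold, adjusted p = 0.00368), which kept its call in every alternative fit, and 0.23 ± 0.07 at day 2 (1.17-fold, adjusted p = 0.0484), which lost it without any single array of the 8 (adjusted p from 0.0555 to 0.197).

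The second question was how the integrin genes differed between the ages within a genotype. These comparisons use the same arrays as the genotype comparisons. In WT cells, Itgax was higher at day 11 than at day 2 by 0.63 ± 0.06 (1.55-fold, adjusted p = 0.00174) and Itgam was 2.95-fold lower, and these were the 2 genes of 10 called, when 5.3% of all genes were (2.81% higher and 2.49% lower). In KO cells, 3 of 10 were called, when 15.5% of all genes were (8.81% higher and 6.71% lower). Itgax was higher at day 11 by 0.62 ± 0.06 (1.54-fold, adjusted p = 0.000825), Itgb7 was lower by a log2 difference of -1.50 ± 0.17 (2.82-fold, adjusted p = 0.0016), and Itgad was lower by -0.46 ± 0.13 (adjusted p = 0.0491). The Itgad call was lost without WT day 2 replicate 1 or 2 (adjusted p = 0.0532), WT day 11 replicate 1 or 2 (0.0662), KO day 2 replicate 2 (0.181), KO day 11 replicate 1 (0.183) or KO day 11 replicate 2 (0.125). Itgax differed by age by almost the same amount in both genotypes, with an interaction of -0.01 ± 0.09 (95% interval from -0.21 to 0.19).

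Itgam, Itgax and Itgad lie next to each other on chromosome 7 (GRCm38.p6, chr7:128062640-128118491, chr7:128129526-128150657 and chr7:128173933-128205504), with no other protein-coding gene of the RefSeq table lying wholly within the run. Itgal lies on the same chromosome, 727502 bases before Itgam. Across gaps of 11034 bases between Itgam and Itgax and 23275 bases between Itgax and Itgad, the KO difference at day 11 was 4.49, 0.29 and -1.01, each 95% interval lying apart from the next (4.27 to 4.71, 0.15 to 0.43 and -1.31 to -0.71). Among the other 7 genes measured within 150 kb of this run, 2 were higher and 1 lower at day 11, and 2 were higher and none lower at day 2. Of all genes, 18.6% were called at day 11 and 20.1% at day 2. Pycard, the inflammasome adaptor gene, was higher by 1.09 ± 0.09 at day 11 (adjusted p = 0.000138) and by 0.59 ± 0.09 at day 2 (adjusted p = 0.00264). Cox6a2, a cytochrome c oxidase subunit gene whose annotated extent overlaps the end of Itgad, read 8.76 and 8.63 in KO and 6.66 and 6.41 in WT cells at day 11, and 7.73 and 7.80 in KO and 7.07 and 7.21 in WT cells at day 2. It was higher in KO cells by 2.16 ± 0.10 at day 11 (adjusted p = 1.35e-05) and 0.63 ± 0.10 at day 2 (adjusted p = 0.00338), while Itgad was lower at both ages. The overlap of the probe sets was not tested.

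**Figure D3:**
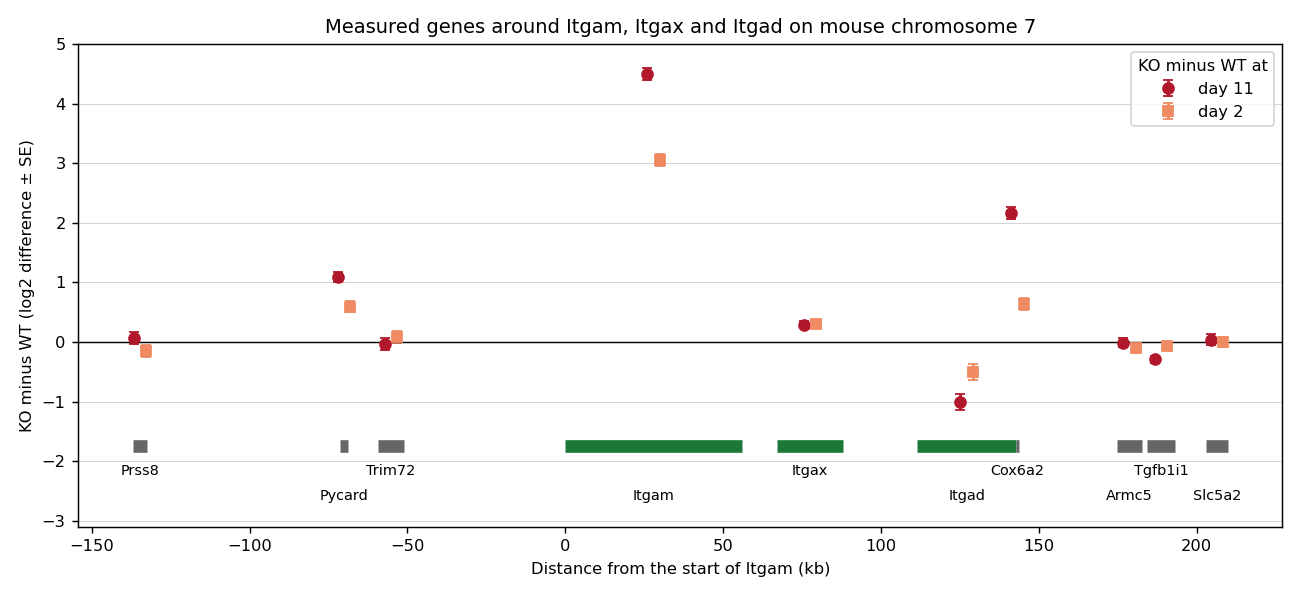
Log2 difference of signal, KO minus WT (± SE), of the 10 measured genes within 150 kb of the run from Itgam to Itgad, at day 11 (circles) and day 2 (squares), by distance in kb from the start of Itgam. Bars below show the extent of each gene, integrin genes in green. Itgam stands at 4.49 and 3.05 while Itgax next to it stands at 0.29 and 0.30, and Itgad lies below 0 at both ages.

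The genes most like 4 of the integrin genes over the 8 arrays were sought among 1387 named genes whose group means spanned at least 1 log2 unit. With 4 groups of 2 arrays, a high r mainly reflects a like order of 4 group means, and it is given as a description. For Itgam they were Slc6a8, the creatine transporter gene (r = 0.997), Card19 (r = 0.996) and Msr1, which encodes the scavenger receptor CD204 (r = 0.993). Msr1 averaged 11.21 in KO and 9.45 in WT cells at day 11, and 11.13 in KO and 10.14 in WT cells at day 2. For Itga4 they were Spata13 (r = 0.996), Ank (0.995) and Bach2os (0.994), Spata13 averaging 9.05 in KO and 7.22 in WT cells at day 11, and 9.37 in KO and 7.34 in WT cells at day 2. For Itgb7 they were Tspan13 (r = 0.989), Olfml3 (0.988) and C1qa, a chain of complement C1q (0.987), the last averaging 6.53 in KO and 5.35 in WT cells at day 11, and 9.91 in KO and 5.70 in WT cells at day 2. For Itgad they were Lsr (r = 0.965), Fcgrt, the gene of the neonatal Fc receptor (0.959), and Haus6 (0.958).

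Among 17 other integrin subunit genes, 1 was higher and 3 were lower in KO cells at day 11 (23.5% called, beside 18.6% of all genes), and 3 were higher and none was lower at day 2 (17.6%, beside 20.1%). These shares are near those of all genes. Itga5, the α chain of the fibronectin receptor, was called at both ages, with 10.19 and 10.41 in KO and 9.57 and 9.61 in WT cells at day 11 and with 10.54 in both KO arrays, above both WT arrays, at day 2. The differences were 0.71 ± 0.08 (adjusted p = 0.000611) and 0.55 ± 0.08 (adjusted p = 0.00214). Itga6, the α chain of laminin receptors, was lower at day 11, with 7.57 and 7.59 in KO and 8.58 and 8.49 in WT cells (-0.95 ± 0.10, adjusted p = 0.000467). Itga9 was higher at day 2, with 5.60 and 5.57 in KO and 4.55 and 4.56 in WT cells (1.03 ± 0.08, adjusted p = 0.000113). The others called were Itga8, higher at day 2, and Itga3 and Itgb6, lower at day 11, all 3 with group means below 5.35. The day 11 calls of Itga3 and Itgb6 were lost without KO replicate 1 or 2, that of Itgb6 also without WT replicate 1, and that of Itga3 also without WT replicate 2 or either WT array of day 2. The number called was 2 at day 11 without KO day 11 replicate 2 and 5 at day 2 without KO day 2 replicate 1.

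Of 30 genes of integrin ligands, 4 were higher and 2 lower at both ages, and they were the same genes. That is 20% of the list at each age, near the 18.6% of all genes called at day 11 and the 20.1% at day 2. Thbs1, the matrix protein thrombospondin 1, read 10.28 and 9.63 in KO and 7.35 and 7.67 in WT cells at day 11, and 12.27 and 12.27 in KO and 10.39 and 10.03 in WT cells at day 2 (differences 2.44 ± 0.21 and 2.06 ± 0.21, adjusted p = 0.000188 and 0.00041). Mfge8, a ligand of αvβ5, read 11.06 and 10.61 in KO and 7.97 and 8.09 in WT cells at day 11, and 10.66 and 10.70 in KO and 9.15 and 9.19 in WT cells at day 2 (2.80 ± 0.13 and 1.51 ± 0.13, adjusted p = 1.35e-05 and 0.000176). Ccn3, a matricellular protein gene, differed by 3.02 ± 0.32 at day 11 and 1.64 ± 0.32 at day 2, the day 2 call being lost without WT day 2 replicate 2. Fn1, fibronectin, was higher by 0.56 ± 0.06 at day 11 and 0.33 ± 0.06 at day 2. Cd47 was lower by -0.66 ± 0.07 at day 11 and -0.53 ± 0.07 at day 2, and Emilin1 by -0.36 ± 0.08 and -0.58 ± 0.08. The day 11 call of Emilin1 was lost without WT day 11 replicate 2 or either KO day 11 array. The counter-receptor genes Vcam1 (4.12 to 4.79 over the 8 arrays) and Icam1 (9.01 to 9.74) showed no genotype call.

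Of 45 genes that activate integrins or tie them to the cytoskeleton, 10 were higher and 8 lower in KO cells at day 11, and 15 were higher and 3 lower at day 2. This is 40% of the list at each age, beside 18.6% of all genes at day 11 and 20.1% at day 2. Their number called was as low as 9 at day 2 without WT day 2 replicate 2 (11 without WT day 2 replicate 1) and 11 at day 11 without either KO day 11 array (12 without WT day 11 replicate 2). Rasgrp1, an exchange factor that activates Ras and Rap proteins, read 7.60 and 6.71 in KO and 5.14 and 5.61 in WT cells at day 11, and 9.77 and 9.70 in KO and 5.90 and 5.44 in WT cells at day 2 (1.78 ± 0.29 and 4.07 ± 0.29). Fyb, an adaptor of integrin activation in T cells, read 7.92 and 7.17 in KO and 4.54 and 4.62 in WT cells at day 11, and 9.66 and 9.24 in KO and 6.26 and 5.57 in WT cells at day 2. The kinase gene Src differed by 1.62 ± 0.14 at day 11 and 2.70 ± 0.14 at day 2, and Vcl, vinculin, by 1.41 ± 0.07 and 1.20 ± 0.07. Talin 1 (Tln1), which opens the β tail, differed by 0.23 ± 0.06 at day 11, a call lost without any of the WT arrays and without KO day 11 replicate 1 or 2, and by 0.38 ± 0.06 at day 2. Ptk2b was lower by -0.47 ± 0.07 at day 11 and -0.36 ± 0.07 at day 2. The day 2 call of Ptk2b was lost without WT day 2 replicate 1 or 2 or KO day 2 replicate 1. Cytip, which binds the β2 activator cytohesin 1, was lower at day 11 by -0.99 ± 0.07.

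Of 19 genes of membrane partners of integrins, 6 were higher and 3 lower at day 11 (47.4%, beside 18.6% of all genes), and 6 were higher and 4 lower at day 2 (52.6%, beside 20.1%). The tetraspanin gene Cd63 read 11.27 and 11.30 in KO and 9.39 and 9.48 in WT cells at day 11, and 10.91 and 10.91 in KO and 10.77 and 10.69 in WT cells at day 2 (1.85 ± 0.06, adjusted p = 4.53e-06, and 0.18 ± 0.06, adjusted p = 0.0916). Tspan4 differed by 1.49 ± 0.12 at day 11 and 0.84 ± 0.12 at day 2. Tspan32 was lower by -0.40 ± 0.10 and -1.06 ± 0.10, the day 11 call being lost without any WT array or either KO day 11 array. Cd14, the lipopolysaccharide co-receptor, differed by 0.69 ± 0.08 at day 11 and 1.11 ± 0.08 at day 2. Mmp9, a gelatinase also stored by neutrophils, read 6.80 and 6.35 in KO and 4.66 and 4.76 in WT cells at day 2, and lay below 5.35 in all day 11 arrays. The count at day 11 was 6 without WT day 11 replicate 1.

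**Figure D4:**
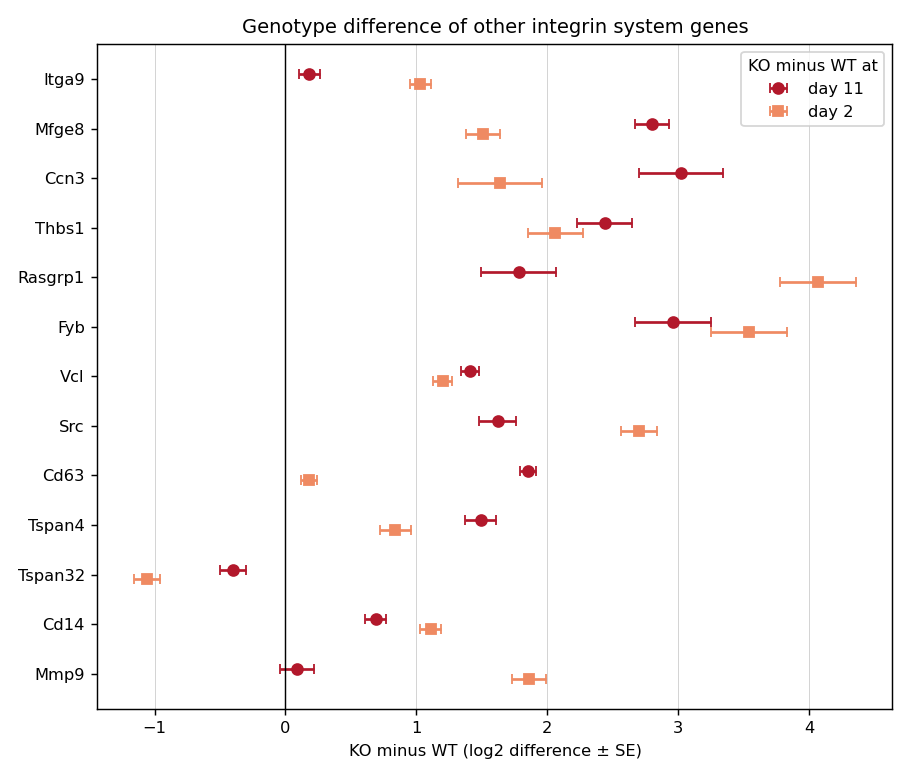
Log2 difference of signal, KO minus WT (± SE), at day 11 (circles) and day 2 (squares) for the 13 genes of the wider integrin lists that were called with a difference of at least 1 log2 unit at either age. Rasgrp1 reaches 4.07 at day 2, Ccn3 reaches 3.02 at day 11, and Tspan32 lies below 0 at both ages.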

How the data were processed

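RNA of sorted lung macrophages was hybridised to Affymetrix arrays after Trizol extraction and whole-transcript labelling, per the labels' protocols. The authors deposited log2 values of 28874 probe sets for the 8 arrays. The submitters' processing notes name RMA and R 2.15.2. RMA brings arrays to a common distribution, so a shift of all genes cannot be seen. Scanner files were not used here.

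Of the probe sets, 21159 had 1 gene symbol, 1881 several and 5834 none. The probe set with the highest mean was kept for each of 18782 genes. A second Itgb1 probe set and 1 assigned to both Cerkl and Itga4 were not used. Group means were fitted to all 8 arrays with limma 3.58.1 in R 4.3.3, and a gene was called at a Benjamini-Hochberg adjusted p under 0.05 over all genes (0.0808 prior SD, 3.77 prior and 4 residual degrees of freedom). The fit was tested on simulated data. Named genes are the 10 integrin genes, genes of 4 wider lists called with at least 1 log2 unit at either age, the 3 genes of highest r for integrin genes spanning 1 log2 unit, and others chosen after their values were seen. The members and lists were chosen with earlier results of these data known. Replicate numbers are not stated to mark a shared litter or day, and no block was used. Python 3.11.15 with matplotlib 3.10.9 drew the figures.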

Additional observations from a re-analysis of the deposited data

Results flagged for a closer look

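Several genotype differences changed between the ages by the test of the interaction (limma, adjusted p under 0.05), given as the KO minus WT difference at day 11 less that at day 2. Of all genes, 3.27% were called in this test. Among the 10 integrin genes these were Itgam, with a larger difference at day 11 (1.44), and Itgb7, with a smaller one (-1.63). Among the wider lists, the value was above 0 for Mfge8 (1.30), Cd63 (1.67) and Cd37 (0.48). It was below 0 for Itga8 (-0.68), Itga9 (-0.85), Rasgrp1 (-2.29), Cyth1 (-0.46), Cytip (-0.85), Src (-1.08), Coro1a (-0.65) and Mmp9 (-1.77). Those of Itgam, Cd63, Mmp9 and Cytip kept their call in all alternative fits. That of Itga9 was lost without WT day 2 replicate 1 or 2, and that of Mfge8 also without WT day 11 replicate 1. Those of Itgb7, Rasgrp1 and Src were lost without any WT array, those of Rasgrp1 and Src also without KO day 2 replicate 1, that of Src without KO day 11 replicate 2 and that of Rasgrp1 with a trend and robust prior. That of Cyth1 was lost without any single array, that of Cd37 without any but KO day 2 replicate 2, and that of Itga8 without any but WT day 2 replicate 1 and KO day 2 replicate 2. That of Coro1a was lost without WT day 2 replicate 1 or 2, WT day 11 replicate 2 or KO day 11 replicate 2. The sort gates differed between the ages, and gate and age cannot be told apart.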

How the results depend on the processing

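Of 740 differences of single integrin genes recomputed under other settings, 689 kept their call, 40 lost it and 11 gained it. No called difference changed sign, and 25 differences that were called in neither fit did. Numbers of integrin genes called without 1 array ranged from 4 to 6 for KO against WT at day 2, 4 to 7 at day 11, 2 to 3 for day 11 against day 2 in WT, 2 to 3 in KO and 1 to 2 for the interaction. With a trend and robust prior they were 4 for the ages in WT and 5 in KO. Numbers over all genes without 1 array ranged from 2223 to 3605 (3774 with all arrays) for KO against WT at day 2, 2059 to 3760 (3500) at day 11, 233 to 1292 (996) for the ages in WT, 1541 to 2985 (2915) in KO and 197 to 942 (615) for the interaction. With the arrays compared fitted alone they were 1581 for the ages in WT and 1466 in KO. With the replicate block, Itgb5 at day 2 had adjusted p = 0.0681 and Itgad in KO across the ages 0.0677, and no other integrin call changed. The deviations of same-numbered arrays had correlations from -0.0754 to 0.25. In 2 of 6 pairs of groups they were over 0.1, so a weak shared deviation cannot be left out there. Itgb5 at day 2 was also lost over all probe sets (0.0547) and after a second normalization (0.0592). Signals near the array median of 5.35 limit Itgad and Itgb7.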
